A study of Mus musculus with 6 samples.

Results

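Homing and adhesion genes of bone marrow stromal cells (BMSC) are described here, namely Cxcl12 and Cxcr4, Vcam1, Itga4 and Itgb1, Icam1 and Cd44. They were taken as a list of 7 genes, and every probe set that the array annotation gives to exactly 1 of these symbols was used. That made 23 of 45037 probe sets, and 7 of 18193 genes. Each gene is given at its brightest probe set (by mean log2 signal over 6 arrays), and any further probe sets serve as a check. Naïve Large T BMSC were adherent marrow cells of transgenic Immortomouse (H-2Kb-tsA58) mice, a hybrid of CBA/ca and C57Bl/10, grown at 33°C and passaged 3 times. The cells of both groups carry the same transgene, in which the H-2Kb promoter, which belongs to a major histocompatibility gene, drives a temperature-sensitive SV40 large T antigen that immortalizes the cells at this temperature. iLarge T BMSC were cells of the same kind that had been given intravenously to male C57BL/6 mice aged 6 to 8 weeks, 24 h after a 60-minute occlusion of the middle cerebral artery. They were taken 14 days later from the infarcted hemisphere with collagenase and grown again at 33°C for 3 passages, so both groups were cultured cells when RNA was made and neither is tissue. Each group has 3 arrays, with odd numbers (1, 3 and 5) for naïve BMSC and even numbers (2, 4 and 6) for iLarge T BMSC, and each array holds RNA pooled from 3 sets of cells or 3 hemispheres.

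CXCL12 is a chemokine that marrow stroma secretes to hold and attract cells that carry its receptor CXCR4, and injured brain tissue also makes it. VCAM1 and ICAM1 are adhesion molecules of the immunoglobulin family on stroma and endothelium. VCAM1 is bound by VLA-4, the integrin made of the α4 chain (Itga4) and the β1 chain (Itgb1), and ICAM1 by the leukocyte β2 integrins. CD44 is a surface receptor for hyaluronan that also carries selectin ligands. These pairs are known for the retention of blood cells in marrow and for the arrest of circulating cells on vessel walls.

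The upstream windows of Cxcl12, Cxcr4 and Cd44 are shown because they are the chemokine pair and the member with the largest number of higher probe sets. They are the 250 bases before the annotated start in RefSeq (build GRCm38.p6), read 5′ to 3′ on the strand of the gene, and capitals mark matches on either strand to GGGCGG (GC box), ACGTG (core of the hypoxia response element) or to an NF-kB type site (3 G, any 2 bases, T, any base, 3 C).
Cxcl12, chr6:117168285-117168534, plus strand: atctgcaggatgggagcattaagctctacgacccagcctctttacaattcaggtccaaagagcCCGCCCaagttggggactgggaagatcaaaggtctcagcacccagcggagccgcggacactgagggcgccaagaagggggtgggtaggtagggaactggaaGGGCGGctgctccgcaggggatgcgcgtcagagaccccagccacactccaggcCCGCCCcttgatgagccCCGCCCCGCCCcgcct
Cxcr4, chr1:128592300-128592549, minus strand: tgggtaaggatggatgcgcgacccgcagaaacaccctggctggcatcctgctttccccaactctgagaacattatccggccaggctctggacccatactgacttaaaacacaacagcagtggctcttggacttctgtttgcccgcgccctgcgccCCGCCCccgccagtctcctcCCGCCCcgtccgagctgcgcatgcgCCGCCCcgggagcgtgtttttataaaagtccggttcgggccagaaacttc
Cd44, chr2:102901666-102901915, minus strand: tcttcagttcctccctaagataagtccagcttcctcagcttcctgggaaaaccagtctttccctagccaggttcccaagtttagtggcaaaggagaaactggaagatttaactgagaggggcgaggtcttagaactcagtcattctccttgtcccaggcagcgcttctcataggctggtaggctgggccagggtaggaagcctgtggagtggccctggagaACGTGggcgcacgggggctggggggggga

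The Cxcl12 window holds 5 GC boxes, 2 of which overlap, and the Cxcr4 window holds 3. The Cd44 window holds none of these but has 1 ACGTG, which starts 29 bases before the start site. Over 27025 genes in the promoter table, 35.4% hold a GC box, 18.5% hold ACGTG and 4.89% hold the NF-kB type site in a window of this length. Of the 7 genes, 6 have a window in the table, none of the 6 holds the NF-kB type site, and Vcam1 is named only. A match of these letters is a description and not a site shown to be used.

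All values are MAS5 signals, a linear intensity that the authors scaled to a trimmed mean of 2500 on each array. Log2 fold changes compare iLarge T with naïve BMSC, positive where iLarge T is higher, and their error (SE, standard error) comes from limma, a linear model that shares its estimate of spread across probe sets. A gene was called higher or lower at a Benjamini-Hochberg adjusted p under 0.05 over all 45037 probe sets and a change of at least 2-fold. Signals under the 40th percentile of their array (183 to 299.6) were taken as near background. The p-values measure only the spread between these pooled arrays. Naïve replicate 1 stood apart from naïve replicates 3 and 5, with correlations of log2 signals across probe sets of 0.829 and 0.831 against 0.892 between the other two. iLarge T replicate 6 had the highest signal of all 6 arrays for 11 of 12 leukocyte and macrophage markers and for 7 of 8 endothelial markers. The summed signal of the leukocyte markers was 153861 on this array, where replicates 2 and 4 had 8767 and 9349 and the naïve arrays 4874 to 12364. Stromal markers were measured on all arrays, among them Col1a1 with 18138 to 94939 and Vim with 94871 to 234266. Endothelial Cdh5 and Emcn were higher on all 3 iLarge T arrays, not on replicate 6 alone, with signals of 2211 to 23797 and 2857 to 15858 against 27.5 to 210 and 17.4 to 122 on the naïve arrays. So were the macrophage receptor Csf1r (1892 to 5673 against 330 to 883) and the glial gene S100b (1399 to 3407 against 158 to 213). These genes do not stand for their whole lists. Of 8 endothelial markers, 2 were called higher, 1 lower and 5 were not called. Endothelial Pecam1 had 62.5 on iLarge T replicate 2, close to 62.2 on naïve replicate 1. Of 12 leukocyte and macrophage markers, 1 was called higher and 11 were not called. Results that changed when either array was left out are given with their values without it.

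Of the 7 genes, Cxcr4 and Cd44 were called higher in iLarge T BMSC, Vcam1 was called lower, and Cxcl12, Itga4, Itgb1 and Icam1 did not pass the test. Among all genes, 3.54% were called higher, 3.26% lower and 6.8% in either direction. No signal of one group lay within the range of the other for 4 of the 7 genes, against 27.6% of all genes. The log2 fold change was positive for 6 of the 7 genes, with a median of 1.33, against a median of 0.06 over all genes. Of the 23 probe sets, 4 were called higher and 3 lower, where 2.47% and 2.27% of all probe sets were. At 2 of the 23 probe sets, 1 of Itga4 and 1 of Itgb1, all 6 signals lay near background.

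**Figure D1:**
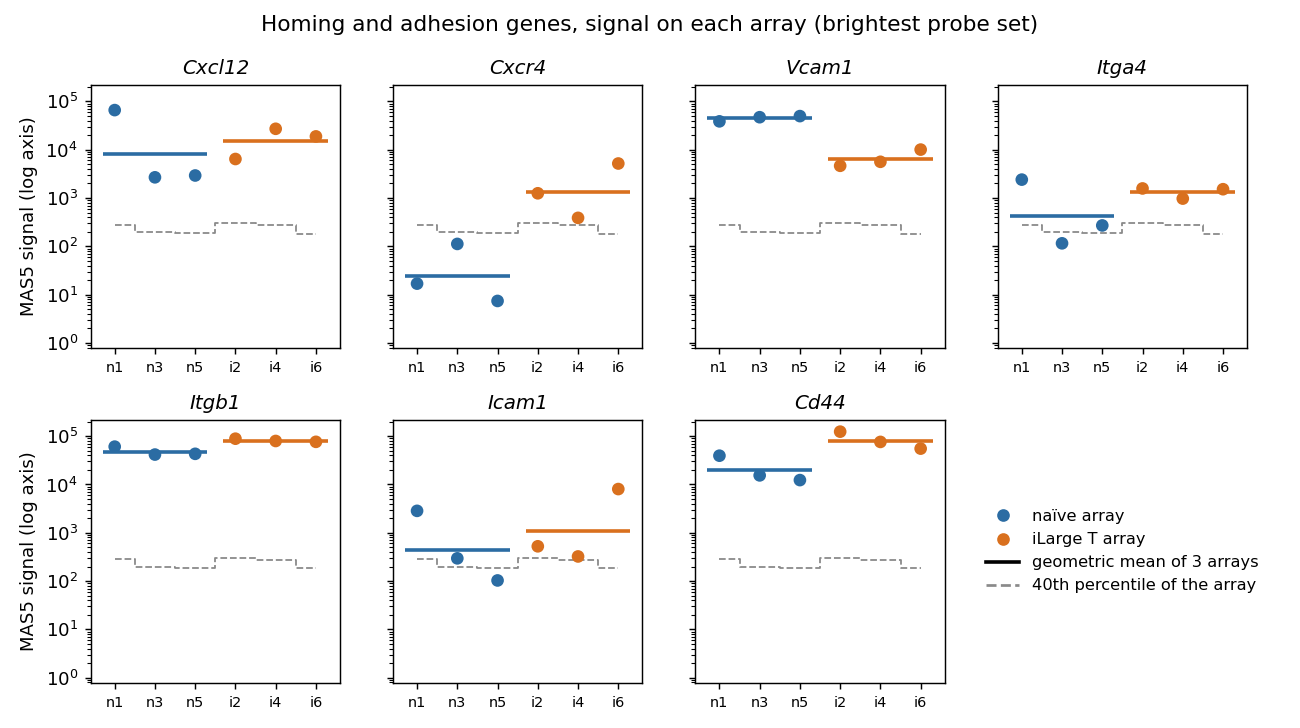
MAS5 signal (log axis) of each gene at its brightest probe set on naïve arrays 1, 3 and 5 (n, blue) and iLarge T arrays 2, 4 and 6 (i, orange), with the geometric mean of each group (bars) and the 40th percentile of each array (dashed). The groups do not overlap for Cxcr4, Vcam1, Itgb1 and Cd44, and naïve array 1 lies far above the other naïve arrays for Cxcl12, Itga4 and Icam1.

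Cxcl12, the ligand, had signals of 66148, 2684 and 2928 on naïve arrays 1, 3 and 5, and of 6428, 27136 and 18877 on iLarge T arrays 2, 4 and 6. All 3 iLarge T arrays lay above naïve replicates 3 and 5 and below naïve replicate 1. The log2 fold change was 0.89 (SE 1.07, 95% confidence interval -1.51 to 3.28, adjusted p = 0.752 from limma), and Cxcl12 was not called. Naïve replicate 1 was 23.6-fold above the geometric mean of the other naïve arrays, a difference of 4.56 on the log2 scale. Of 11400 genes with a mean log2 signal at or above the median, 76 differed in this direction by at least as much. Without naïve replicate 1, Cxcl12 was called higher, with a log2 fold change of 2.41 (SE 0.50, adjusted p = 0.0124), or 5.31-fold. On linear signals, where naïve replicate 1 weighs most, the log2 ratio of the group means was -0.45.

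The second probe set of Cxcl12 by signal (1417574_at) showed the same order of arrays. Its signals were 28431, 505 and 535 on naïve arrays 1, 3 and 5, and 1554, 7026 and 6577 on iLarge T arrays 2, 4 and 6. Here the log2 fold change was 1.07 with all arrays (SE 1.34, adjusted p = 0.761) and 3.00 without naïve replicate 1 (SE 0.59, adjusted p = 0.00976). The dim probe set (1439084_at) had signals of 26.9 to 404 and a log2 fold change of 0.32 (SE 1.15, adjusted p = 0.933).

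Cxcr4, the receptor, had signals of 16.9, 112 and 7.40 on naïve arrays 1, 3 and 5, all near background. On iLarge T replicates 2, 4 and 6 they were 1254, 389 and 5187, all above it. The groups did not overlap, and the iLarge T arrays differed widely among themselves. The single probe set of Cxcr4 gave a signal at least 6.23-fold higher in iLarge T than in naïve BMSC (limma, adjusted p = 0.0311). Leaving out iLarge T replicate 6 lowered this bound to 3.19, and leaving out iLarge T replicate 4 raised it to 11.7. Cxcr4 was no longer called when replicate 5 of the naïve arrays (adjusted p = 0.0767) or replicate 2 (0.113) or 6 (0.149) of the iLarge T arrays was omitted. Without the intensity trend the adjusted p was 0.130. The highest signal lay on the array with high leukocyte markers, on which Ptprc, the leukocyte common antigen CD45, had 4440, while it had 196 and 206 on replicates 4 and 2. Cxcr4 is also known from leukocytes and endothelium. Cdh5, Emcn and Csf1r were, like Cxcr4, higher on all 3 iLarge T arrays than on any naïve array, but most markers of their lists were not called. The endothelial list of 8 had 2 called higher, 1 lower and 5 not called. The leukocyte and macrophage list of 12 had 1 called higher and 11 not called. The part of such cells in the Cxcr4 signal was not tested on any array. In pooled cultures, more cells with a transcript and more transcript per cell cannot be told apart.

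Vcam1, the ligand of VLA-4, had signals of 38694, 47125 and 49679 on naïve arrays 1, 3 and 5, and of 4651, 5625 and 10067 on iLarge T arrays 2, 4 and 6. Every naïve array lay above every iLarge T array, and naïve replicate 1 was close to the other naïve arrays here. The log2 fold change was -2.81 (SE 0.31, 95% confidence interval -3.50 to -2.12, adjusted p = 0.00130), which is 7.01-fold lower. The other probe sets of Vcam1 gave -2.82 (1415989_at, adjusted p = 0.00277) and -2.81 (1451314_a_at, adjusted p = 0.00426). At 1415989_at the signals were 21131 to 36859 in naïve and 2309 to 5683 in iLarge T BMSC, and at 1451314_a_at they were 16635 to 21067 and 1505 to 4971. With each array left out in turn, all 3 probe sets stayed called, with log2 fold changes of -2.58 to -3.13 at the brightest. Among the iLarge T arrays, the Vcam1 signal was highest on replicate 6 at each probe set. With limma without its intensity trend the adjusted p at the brightest was 0.0625, and with the methods' t-test it was 0.0861 on log2 and 0.0732 on linear signals, so that Vcam1 was not called there.

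Itga4, the α4 chain of VLA-4, had signals of 2406, 115 and 271 on naïve arrays 1, 3 and 5, and of 1579, 974 and 1522 on iLarge T arrays 2, 4 and 6. As for Cxcl12, all iLarge T arrays lay between naïve replicate 1 and the other naïve arrays. Itga4 had a log2 fold change of 1.65 (SE 0.94, 95% confidence interval -0.45 to 3.76, adjusted p = 0.422) and was not called. Without naïve replicate 1 it was called higher, by 2.91 on the log2 scale (SE 0.58, adjusted p = 0.0101). The other 4 probe sets of Itga4 had 4 to 6 of their 6 signals near background and log2 fold changes of -1.94 to 1.2, none called, with or without naïve replicate 1. The highest of their signals was 1601, at 1456498_at on naïve replicate 1.

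Itgb1, the β1 chain that pairs with α4 and with many other α chains, had signals of 60735, 41625 and 43122 on naïve arrays 1, 3 and 5. On iLarge T replicates 2, 4 and 6 they were 88688, 79525 and 76354, all above the naïve arrays. The log2 fold change was 0.77 (SE 0.24, 95% confidence interval 0.23 to 1.31, adjusted p = 0.118), or 1.70-fold, and was not called. At 1426918_at the signals were 29113 to 42563 in naïve and 64079 to 77453 in iLarge T BMSC. The adjusted p there was 0.0464, but the change of 1.99-fold was short of 2-fold. With the 6 probe sets averaged, Itgb1 was called higher (1.39, adjusted p = 0.0361). Their log2 fold changes were 0.57 to 3.33, and the groups did not overlap at 5 of them. The highest value, 3.33, came from 1438119_at, whose 6 signals of 3.61 to 186 all lay near background. 2 probe sets of Itgb1 are of the x type, whose probes can also bind transcripts of other genes, and their log2 fold changes of 1.23 and 1.43 are uncertain for that reason. Without naïve replicate 1, 1426918_at was called higher (log2 fold change 1.14, adjusted p = 0.00877), and so was the x type probe set 1426920_x_at (1.5, adjusted p = 0.0461).

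Icam1, the ligand of the leukocyte β2 integrins, had signals of 2844, 296 and 103 on naïve arrays 1, 3 and 5, and of 525, 324 and 8037 on iLarge T arrays 2, 4 and 6. The spread within each group was larger than the difference between the groups. With all arrays the log2 fold change was 1.33 (SE 1.36, 95% confidence interval -1.71 to 4.36, adjusted p = 0.701), and Icam1 was not called. Omitting naïve replicate 1 gave 2.67 (adjusted p = 0.223), and omitting iLarge T replicate 6 gave -0.10 (adjusted p = 0.981), so the direction rested on that last array. Among the β2 integrin genes, Itgb2 had 7512 on iLarge T replicate 6 and 45.3 and 145 on the other iLarge T arrays. Icam1 is expressed by stroma, leukocytes and endothelium, and the part of each in its signal was not tested.

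Cd44 had signals of 39437, 15436 and 12328 on naïve arrays 1, 3 and 5, and of 124107, 76076 and 55265 on iLarge T arrays 2, 4 and 6. Every iLarge T array lay above every naïve array, and the lowest iLarge T signal was on replicate 6. The log2 fold change was 2.04 (SE 0.45, 95% confidence interval 1.05 to 3.03, adjusted p = 0.0305), or 4.11-fold. At 1434376_at the signals were 15415, 19174 and 19212 on naïve arrays 1, 3 and 5, and 101820, 82318 and 73754 on iLarge T arrays 2, 4 and 6. The groups were tighter there, with a log2 fold change of 2.26 (SE 0.24, adjusted p = 0.00111). The probe set 1452483_a_at gave 2.48 (SE 0.34, adjusted p = 0.00407), from signals of 5439 to 11127 in naïve and 28594 to 58957 in iLarge T BMSC. The dim probe set 1443265_at, with 5 of 6 signals near background, gave 2.41 (SE 1.25, adjusted p = 0.366). At the brightest probe set the call was lost without any array but naïve replicate 1, at adjusted p of 0.0580 to 0.124. At 1434376_at and 1452483_a_at it held with each array left out, with log2 fold changes of 2.13 to 2.36 and of 2.23 to 2.77. Without the intensity trend Cd44 was not called (adjusted p = 0.2 at the brightest probe set and 0.0625 at 1434376_at). The probe sequences were not used here, so the transcript form that each probe set reads is not given.

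**Figure D2:**
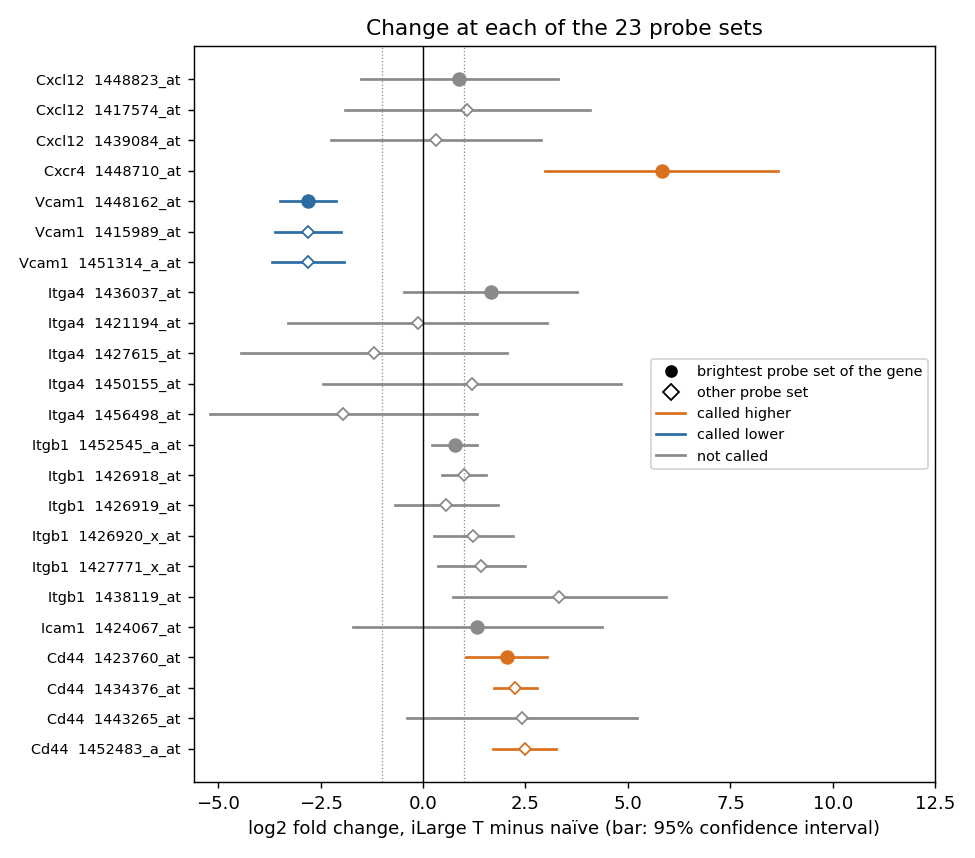
Log2 fold change (iLarge T minus naïve) and 95% confidence interval from limma at each of the 23 probe sets, with the brightest of each gene as filled circles and dotted lines at 2-fold. The 3 probe sets of Vcam1 lie together near -2.81, 3 of the 4 of Cd44 were called higher, and the intervals of Cxcl12, Itga4 and Icam1 span 0.

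The genes differed in how far naïve replicate 1 lay from the other naïve arrays. This array had the highest naïve signal for 5 of the 7 genes, against 43.6% of all genes. It was 23.6-fold above the mean of the other naïve arrays for Cxcl12, 16.3-fold for Icam1 and 13.6-fold for Itga4. For Cd44 the ratio was 2.86, for Itgb1 1.43, for Vcam1 0.80 and for Cxcr4 0.59, the last among signals near background. Without this array 4 genes were called higher (Cxcl12, Cxcr4, Itga4 and Cd44) and Vcam1 lower, where 13.8% of all genes were called in either direction. Among the naïve arrays, replicate 1 was highest for 7 of 12 leukocyte markers and 5 of 10 stromal markers. Its leukocyte sum of 4874 was the lowest of the 6 arrays. That sum lay below those of naïve replicates 3 and 5 because of Cd68, with 544 against 9873 and 8396. Its stromal sum was 444277, against 250064 and 254075. This rested mostly on Vim (227394 against 97933 and 94871), Col3a1 (127207 against 79514 and 81959) and Col1a2 (47214 against 4795 and 8358). Thy1 (4123 against 749 and 864) and Eng (12028 against 7534 and 5520) were higher there too. Col1a1, Pdgfra and Pdgfrb were lower there than on the other naïve arrays. The part of this in the values of Cxcl12, Icam1 and Itga4 was not tested.

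**Figure D3:**
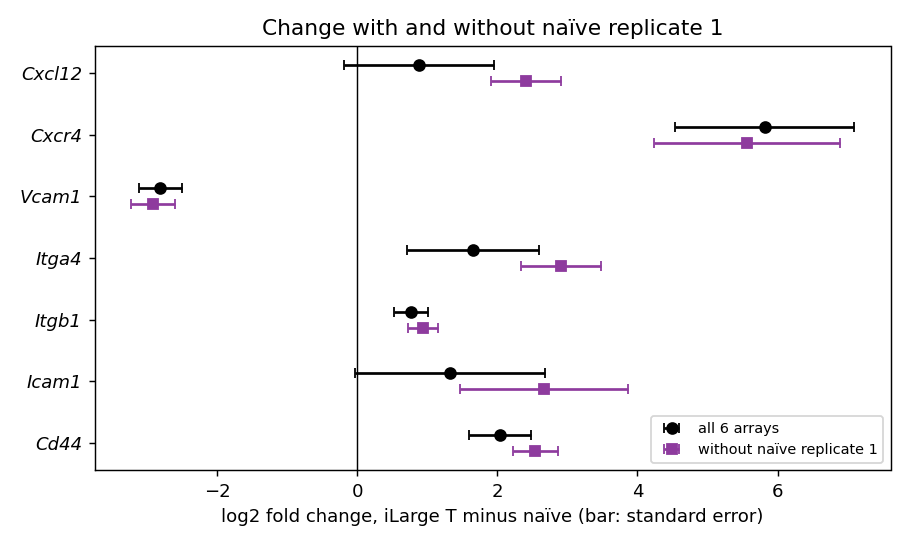
Log2 fold change (iLarge T minus naïve) with its SE for each gene, from all 6 arrays (black circles) and without naïve replicate 1 (purple squares). Cxcl12 moves from 0.89 to 2.41 and Itga4 from 1.65 to 2.91, while Vcam1 moves from -2.81 to -2.92.

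**Figure D4:**
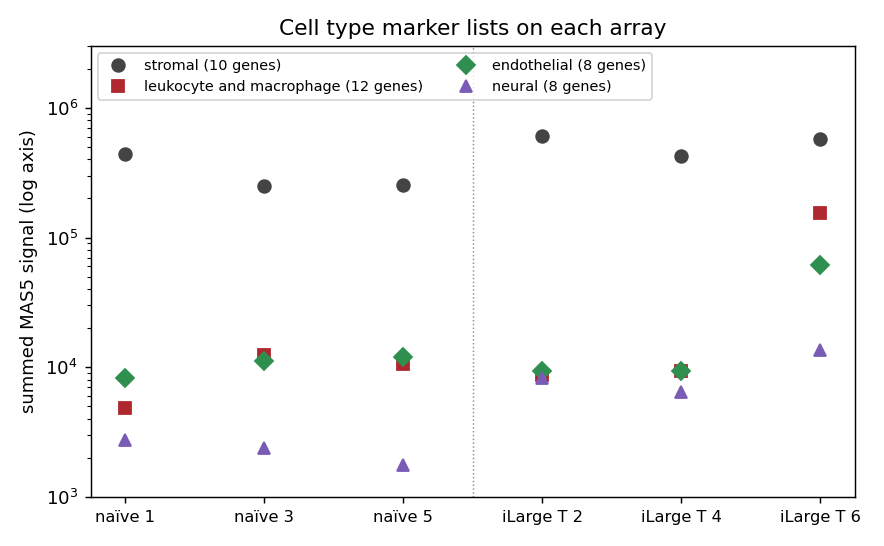
Summed MAS5 signal (log axis) of the measured marker genes of 4 cell types on each array. Leukocyte and macrophage markers reach 153861 and endothelial markers 61042 on iLarge T replicate 6, against at most 12364 and 11901 on the other 5 arrays. The naïve endothelial sums are mostly Tek (5703 to 9080), so they hide that Cdh5 and Emcn were higher on iLarge T arrays 2 and 4 as well.

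Genes with the most similar profile were found among 11400 bright genes, by the root mean square difference of their log2 signals over the 6 arrays after each gene's mean was subtracted. For Cxcl12 they were Mmp16, a membrane metalloproteinase (0.42), Irgm1, an interferon-induced GTPase (0.59), and Rhbdl2 (0.67). Mmp16 had signals of 12891, 774 and 621 on naïve arrays 1, 3 and 5 and of 2812 to 5761 on the iLarge T arrays. Mmp16 was chosen for likeness over these same arrays, so its high naïve replicate 1 follows from that choice. For Vcam1 they were Agbl3 (0.12), F11r, the junctional adhesion molecule A (0.27), and Fam111a (0.28). F11r had signals of 24772 to 41267 in naïve and of 3768 to 5561 in iLarge T BMSC. For Cd44 they were Tnnc1 (0.18), the cell adhesion molecule Nectin3 (0.19) and the transcription factor Nfatc1 (0.19). For Cxcr4 the nearest genes were more distant, namely Il34, a cytokine that acts on macrophages (0.89), Slc4a10 (1.10) and Dkk3 (1.12). For Itga4 they were Grip2 (0.28), Pappa (0.39) and Klf12 (0.40), for Itgb1 Bgn (0.04), Rab18 (0.04) and Pgk1 (0.04), and for Icam1 Ecscr (0.60), Thy1 (0.87) and Smoc1 (0.98). With 2 groups and 6 arrays many genes share such a profile, and the order of close values has no error attached.

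Of 91 measured genes in 5 lists of the same pathways, 5 were called higher and 5 lower, with a median log2 fold change of 0.19 against 0.06 over all genes. Among all genes, 3.54% were called higher and 3.26% lower. Without naïve replicate 1 the counts for the 91 genes were 13 and 7, where 13.8% of all genes were called in either direction. Without iLarge T replicate 6 the counts for the 91 genes were 3 and 4, and no count over all genes is given for that setting. Genes called only without naïve replicate 1 are named below after their values were seen. Among 17 measured genes of CXCL12-CXCR4 signaling, 2 rose and 1 fell, 14 were not called, and the median was 0.34. Rgs16, a regulator that shortens G protein signals of chemokine receptors, had signals of 44.4, 86.8 and 248 on the naïve and 7088, 5861 and 10797 on the iLarge T arrays in order of their numbers. Its log2 fold change was 6.28 (SE 0.63, adjusted p = 0.000969), but 2 of its 3 naïve signals lay near background, and setting these to the 40th percentile gave 4.99. Gnai1, an inhibitory G protein subunit through which chemokine receptors signal, rose by 3.31 (SE 0.50, adjusted p = 0.00586). Dpp4, the peptidase CD26 that inactivates CXCL12, was near background on the 3 iLarge T arrays (17.5 to 132) and had 335, 1388 and 2081 in naïve BMSC. Dpp4 was called lower by limma on the signals as measured (adjusted p = 0.0377). Its fall is given as a lower bound, 4.01-fold, because of these dim signals. When each of them was replaced by the 40th percentile of its array, limma no longer called Dpp4 (adjusted p = 0.0550). Quantile normalization also ended the call (adjusted p = 0.0598). The bound was 2.76 when array 5 and 6.89 when array 1 was left out, and omitting array 2, 3, 4 or 5 ended the call (adjusted p of 0.107 to 0.191). Arrb2, an arrestin that desensitizes such receptors, had a log2 fold change of -2.09 (adjusted p = 0.0572) and was called lower without naïve replicate 1 (-2.61, adjusted p = 0.00508). Ackr3, the second receptor of CXCL12, which removes it from the surroundings, had a log2 fold change of 0.39 (SE 0.57, adjusted p = 0.804).

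Among 19 ligands, partners and adaptors of VLA-4, Tln2, a talin that links integrins to actin, was the single gene called with all arrays, at a log2 fold change of 2.55 (SE 0.38, adjusted p = 0.00551). Without naïve replicate 1, Emilin1, an extracellular matrix glycoprotein (2.95, adjusted p = 0.000995), and Parva, an actin-binding adaptor (1.17, adjusted p = 0.0320), were called higher too. The median of this list was 0.47. Fn1, which encodes fibronectin, the matrix ligand of VLA-4, had signals of 64835 to 100211 in naïve and 97880 to 110775 in iLarge T BMSC (log2 fold change 0.45, adjusted p = 0.401). The integrin activators Tln1 (log2 fold change 0.03, adjusted p = 0.979) and Fermt2 (0.53, adjusted p = 0.446) were not called. Itgb7, the other β partner of α4, gave 1.44 (adjusted p = 0.646), but its 3 naïve signals lay near background and its lower bound was 1.07-fold. Itga9, a chain related to α4, gave 1.67 (adjusted p = 0.408). Its probe sets averaged gave 2.72 (adjusted p = 0.0594) and its most variable one 4.83 (adjusted p = 0.0552), neither of them called.

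Among 20 immunoglobulin adhesion molecules, leukocyte integrins and selectins with their ligands, 2 rose and 1 fell, 17 were not called, and the median was 0.88. Cd24a, a surface ligand of P-selectin, rose by 5.58 (SE 1.17, adjusted p = 0.0251), from 4465, 113 and 118 on naïve arrays 1, 3 and 5 to 12810 to 22822. Its call was lost without any array but naïve replicate 1 (adjusted p of 0.0747 to 0.110), and without that array it was at least 96.9-fold higher, both remaining naïve signals being near background. Mcam, an endothelial and stromal adhesion molecule (3.83, adjusted p = 0.0213), was called higher and Alcam, a ligand of CD6 (-1.62, adjusted p = 0.00315), lower when naïve replicate 1 was left out. Jam3 rose by 1.95 (adjusted p = 0.0105), with adjusted p of 0.0524 when array 3 and 0.0535 when array 6 was omitted, while F11r of the same family had a log2 fold change of -2.96 (SE 0.28, adjusted p = 0.000852). The leukocyte integrin genes Itgal (log2 fold change 0.81, adjusted p = 0.759), Itgam (2.78, adjusted p = 0.297) and Itgb2 (1.33, adjusted p = 0.807) were not called. Neither were the selectin Sele (0.95, adjusted p = 0.721) and the selectin ligand Selplg (1.57, adjusted p = 0.506). The 3 naïve signals of Itgam lay near background, so 2.78 does not give the size of its change, whose lower bound was 1.97-fold.

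Among 19 genes around hyaluronan and CD44, limma called 0 higher and 2 lower with all arrays, and the median was -0.20. At an unadjusted p under 0.05 from limma, 4 were higher and 3 lower, where 4011 of all 18193 genes passed in either direction. Limma without its trend and both t-tests also called 0 higher. The 2 lower calls, Ezr and Hmmr (described below), were lost in each of these settings. Adjusted p was 0.0698 to 0.129 for Ezr and 0.142 to 0.319 for Hmmr. Without naïve replicate 1, 4 genes were called higher. Cemip, which takes part in hyaluronan breakdown, had 93768, 380 and 419 on the naïve and 47429, 27799 and 61865 on the iLarge T arrays, and its log2 fold change went from 4.14 (adjusted p = 0.239) to 6.76 (adjusted p = 7.90e-06). Vcan, the hyaluronan-binding proteoglycan versican, had a log2 fold change of 3.30 with all arrays (adjusted p = 0.0663). Without naïve replicate 1 limma called it higher on the signals as measured (adjusted p = 0.000573). Both remaining naïve signals of Vcan were near background, so this rise is given as a lower bound, 17.8-fold. Hyal2, a hyaluronidase, went from a log2 fold change of 1.96 (adjusted p = 0.112) to 2.51 (adjusted p = 0.0144), and Has2 is given below. Ezr, which encodes ezrin, a protein that ties CD44 to the actin cortex, had signals of 50450, 74080 and 81603 on naïve arrays 1, 3 and 5, and of 4795, 13394 and 8015 on iLarge T arrays 2, 4 and 6. Its log2 fold change was -3.07 (SE 0.37, adjusted p = 0.00207). Msn, which encodes the related moesin, had one of 0.36 (SE 0.23, adjusted p = 0.479). Hmmr, a hyaluronan receptor that also works at the mitotic spindle, fell by 2.55 (SE 0.49, adjusted p = 0.0174). Omitting replicate 3 of the naïve arrays (adjusted p = 0.0585) or replicate 2 (0.0776) or 6 (0.0781) of the iLarge T arrays ended the call. Has2, a hyaluronan synthase, had signals of 938, 273 and 186 on naïve arrays 1, 3 and 5, and of 9970, 2460 and 1259 on iLarge T arrays 2, 4 and 6. The groups did not overlap, but the log2 fold change of 3.11 (SE 0.80, adjusted p = 0.0598) did not pass the test. It passed without naïve replicate 1 (3.80, adjusted p = 0.00910).

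Among 16 genes of the NF-kB pathway, which is known to induce Vcam1 and Icam1, Il1r1, the receptor of interleukin 1, was the single gene called with all arrays. It fell by 3.09 (SE 0.47, adjusted p = 0.00618), from signals of 3341 to 4854 to signals of 284 to 924. The most variable probe set of Il1r1 did not show this and gave 3.24 (adjusted p = 0.171). The median of the list was -0.06. Tnfaip3, a feedback inhibitor of NF-kB, was called higher without naïve replicate 1 (1.65, adjusted p = 0.0215) and had 0.79 (adjusted p = 0.611) with it. Relb gave a log2 fold change of -0.86 (adjusted p = 0.695) and Nfkbia, an inhibitor and target of NF-kB, one of 0.07 (adjusted p = 0.95).

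Other probe sets of the called genes did not all bear the same change. With the log2 signals of a gene's probe sets averaged, Ezr gave -1.12 (adjusted p = 0.308), Jam3 1.29 (adjusted p = 0.346), Tln2 2.26 (adjusted p = 0.0825), Cd24a 6.39 (adjusted p = 0.0643) and Dpp4 -2.92 (adjusted p = 0.0938), and these were not called. F11r stayed called at a smaller log2 fold change of -1.2 (adjusted p = 0.0483). Rgs16, Gnai1 and Hmmr also stayed called, at log2 fold changes of 7.61 (Rgs16), 4.0 (Gnai1) and -2.32 (Hmmr). The most variable probe set of Jam3 gave 0.63 (adjusted p = 0.870), and that of Tln2 3.39 (adjusted p = 0.0928).

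**Figure D5:**
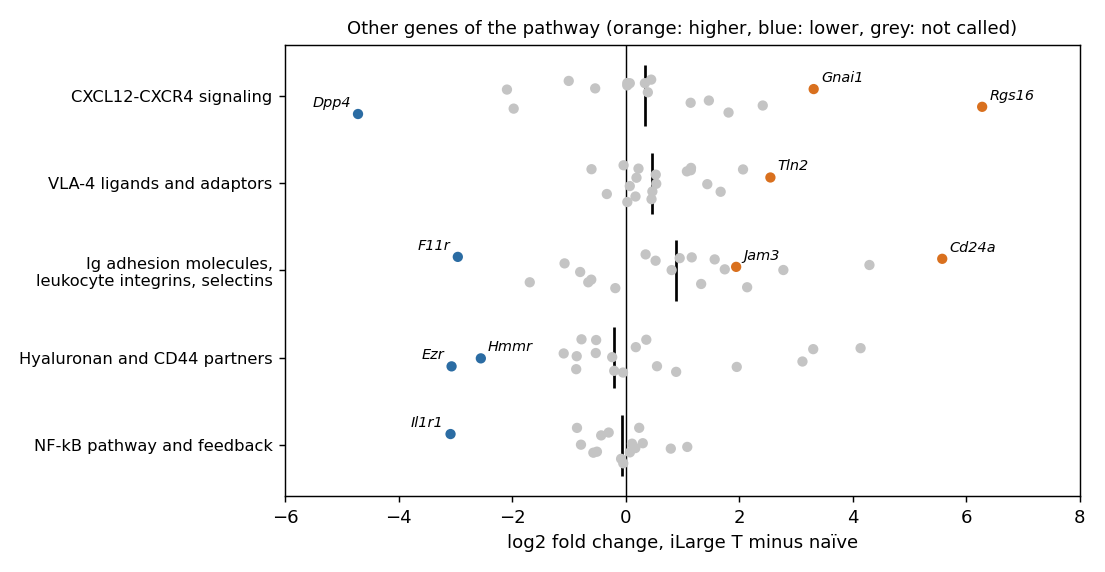
Log2 fold change (iLarge T minus naïve) of each measured gene in 5 lists of related genes, with the median of each list as a black line and called genes named. Of 91 genes, 5 were called higher and 5 lower, where 3.54% and 3.26% of all genes were. The list medians run from -0.20 to 0.88.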

How the data were processed

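RNA of 3 naïve and 3 iLarge T BMSC pools was hybridized to Affymetrix oligonucleotide arrays of the mouse genome. The deposited values are MAS5 intensity signals on a linear scale, scaled by the authors to a mean of 2500 after trimming 2% at each end. The table gives no detection calls, and precision is limited by how few arrays there are. Of 45101 probe sets, 64 controls were left out. Of the others, 34945 have 1 gene symbol, 932 several and 9160 none listed, and 34741 were found by gene identifier in RefSeq. Log2 signals were fitted in R 4.3.3 with limma 3.58.1, using lmFit and then eBayes with a prior variance that follows the intensity, and the script was tested on simulated data. Tables and figures used Python 3.11.15, pandas 2.3.3, scipy 1.17.1 and matplotlib 3.10.9.

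Where the 3 arrays of 1 group lay under the 40th percentile, the fold is a lower bound: the mean log2 signal of the brighter group minus the mean, in the dimmer group, of the higher of the signal and that percentile.

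The members and lists were chosen with earlier results of these data known. From each list, called genes were named (at most 4 with the largest change), with 20 genes fixed by name, of which Spp1 and Nfkb1 are not analysed here. Of 100 listed genes, 91 have a probe set that is theirs alone. Alternatives were limma without the trend, the methods' t-test on log2 and on linear signals, omission of each array, a quantile normalization, removal of dim probe sets, raising low signals to the 40th percentile, adding 16 before log2, the mean or the most variable probe set of a gene, and thresholds of 1.5-fold and 3-fold.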

Additional observations from a re-analysis of the deposited data

How the results depend on the processing

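No paired analysis was possible because the groups share no replicate numbers and no label pairs an array of one group with an array of the other. The direction of Vcam1, Cxcr4, Cd44 and Itgb1 was the same under each alternative listed above. Without the intensity trend limma called 0 members higher and 0 lower, and the methods' t-test, held to these thresholds, also gave 0 and 0 on log2 and on linear signals. At an unadjusted p under 0.05 these 3 settings gave 2, 3 and 2 members higher and 1 lower each. Limma with its trend gave 3 higher and 1 lower at that p, where 4011 of all 18193 genes passed in either direction. For the other settings no such count over all genes is given. The most variable probe set of each gene gave 1 member higher, and averaged probe sets gave 3, with Itgb1 added. With 1 array left out, 0 to 4 members were called higher (4 without naïve replicate 1, and 0 when naïve replicate 5 or either of iLarge T replicates 2 and 6 was omitted) and 1 lower each time.

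For the 91 pathway genes, 5 higher and 5 lower became 1 and 1 without the trend, 0 and 0 with either t-test, 3 and 2 when probe sets were averaged, and 2 and 3 with the most variable one. At an unadjusted p under 0.05, 11 were higher and 8 lower by the t-test on log2 signals, and 10 and 6 on linear signals. Limma with its trend gave 16 and 9 at that p, where 4011 of all 18193 genes passed in either direction. Low signals raised to the 40th percentile gave 12 higher. With 1 array left out, 3 to 13 were higher and 3 to 7 lower. Except without naïve replicate 1, no count of called genes over all genes is given for these settings. The same holds for the member counts above. A shift in these counts therefore cannot be told apart from a shift over all genes.

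Some log2 fold changes changed sign, none of them called except that of Il1r1. On linear signals the 3 probe sets of Cxcl12 gave -0.45, -0.96 and -0.31, and the Itga4 probe sets 1427615_at and 1450155_at gave 0.078 and -0.56. With low signals raised these Itga4 probe sets gave 0.17 and -0.23. With the mean of the probe sets Itga4 gave -0.082, Il1r1 0.076 and Tln1 -0.25, and with the most variable one Il1r1 gave 3.24 and Tln1 -0.41. Leaving out 1 array gave -0.10 to 2.67 for Icam1, -0.75 to 1.2 for Cxcl12 at 1439084_at, -0.91 to 1.17 for Itga4 at 1421194_at and -2.48 to 0.35 at 1427615_at. It gave -0.21 to 0.74 for Ackr3, -0.19 to 0.28 for Tln1, -0.85 to 2.84 for Itgb2, -1.65 to 0.035 for Relb and -0.21 to 0.41 for Nfkbia. Where an array or setting changed a call, the cause was not tested. Signals under the 40th percentile have no order here, which limits Cxcr4 and the dim probe sets of Cxcl12, Itga4, Itgb1 and Cd44.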
